A study of Homo sapiens with 16 samples.

Results

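The 10 genes PKM, HK1, HK2, PFKM, PFKFB3, PGAM1, ENO1, ENO2, GAPDH and SLC16A3 carry glucose through glycolysis to pyruvate and lactate. They were followed in 8 lists of 2 kb genomic regions, taking every region that the authors had assigned to one of these gene names. This gave 69 of 59617 regions, and 10 of the 18509 genes with a region in any list. The lists came from PC9, a single established human line of non-small cell lung cancer with an activating EGFR mutation, kept as wild type cells without a guide. Cells received osimertinib, an inhibitor of mutant EGFR, or DMSO as vehicle, with dose and time in the binding assay not given in the sources used here. Libraries targeted the histone marks H3K4me3, H3K4me1 and H3K9me3 and the demethylase KDM1A (LSD1), with 1 library for each target and treatment. The series concerns PKM2, one of the pyruvate kinase isoforms made from PKM, and the osimertinib response. With no replicate, no difference between osimertinib and vehicle could be tested, and all comparisons describe these libraries.

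Glycolysis begins when hexokinases (HK1, HK2) phosphorylate glucose and trap it in the cell. Phosphofructokinase (PFKM) commits the sugar to the pathway, and PFKFB3 makes the small molecule that switches phosphofructokinase on. GAPDH, phosphoglycerate mutase (PGAM1) and enolase (ENO1, ENO2) then work down the chain, and pyruvate kinase (PKM) makes pyruvate in its last step. SLC16A3 (MCT4) exports the lactate that glycolytic tumour cells form. H3K4me3 marks active gene starts, H3K4me1 marks enhancers and the flanks of active starts, and H3K9me3 marks silenced chromatin. KDM1A removes methyl groups from H3K4me1 and H3K4me2, but not from H3K4me3.

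List length differed between treatments, with 13285 H3K4me3 regions with osimertinib and 11621 with vehicle, and 6515 H3K4me1 regions with osimertinib against 9761 with vehicle. KDM1A had 8882 regions with osimertinib and 4731 with vehicle, and H3K9me3 had 2073 with osimertinib and 2749 with vehicle. The deposited signal is a height whose scaling is not stated, and its median over the H3K4me3 list was 3.52 with osimertinib and 7.15 with vehicle. Signals were therefore ranked within their own list, rank 1 being the highest. H3K4me3 promoter regions covered 6 of 10 markers of lung adenocarcinoma epithelium with osimertinib and 7 of 10 with vehicle, with the lineage genes NKX2-1, SFTPB and NAPSA absent from both. They covered 0 of 6 leukocyte markers with osimertinib and 1 of 6 with vehicle, and 0 of 6 fibroblast and endothelium markers with either treatment.

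The starts of these genes are shown here because the H3K4me3 result turns on them. Each sequence is the 250 bases before 1 annotated RefSeq start of the gene (GRCh38.p14), 5′ to 3′ on the strand of the gene. A RefSeq promoter was matched for all 10 genes. The start used is not always the outermost one. It lies inside the gene for GAPDH (6535264, outermost 6534517), PFKFB3 (6202932, outermost 6144921) and SLC16A3 (82229042, outermost 82217934). The same holds for PKM, HK1, PFKM and PGAM1. Capitals mark 5 motifs searched on both strands: the E-box CACGTG, the HIF core ACGTG, the GC box GGGCGG, the AP-1 site TGANTCA and the CCAAT box. The HIF core lies inside the E-box, so each E-box also counts as a HIF core. The first 4 starts had H3K4me3 within 1 kb in both lists, ENO2 had a region with osimertinib, PFKFB3 had one with vehicle, and HK2 had no H3K4me3 region.
GAPDH, chr12:6535014-6535263, plus strand: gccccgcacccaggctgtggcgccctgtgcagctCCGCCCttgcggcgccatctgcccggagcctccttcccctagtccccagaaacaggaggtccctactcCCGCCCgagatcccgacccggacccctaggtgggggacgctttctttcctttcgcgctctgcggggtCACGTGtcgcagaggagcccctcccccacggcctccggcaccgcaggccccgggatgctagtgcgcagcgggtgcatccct
ENO1, chr1:8878687-8878936, minus strand: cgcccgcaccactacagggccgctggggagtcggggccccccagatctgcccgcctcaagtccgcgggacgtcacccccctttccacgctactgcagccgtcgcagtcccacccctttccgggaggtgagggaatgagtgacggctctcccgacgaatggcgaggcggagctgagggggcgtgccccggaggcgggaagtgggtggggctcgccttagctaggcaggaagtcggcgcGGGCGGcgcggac
PKM, chr15:72231191-72231440, minus strand: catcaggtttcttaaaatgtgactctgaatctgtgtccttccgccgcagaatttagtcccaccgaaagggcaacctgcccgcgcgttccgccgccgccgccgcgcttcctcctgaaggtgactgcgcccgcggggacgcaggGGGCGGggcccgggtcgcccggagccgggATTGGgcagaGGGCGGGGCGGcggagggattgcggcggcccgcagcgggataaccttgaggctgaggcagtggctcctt
SLC16A3, chr17:82228792-82229041, plus strand: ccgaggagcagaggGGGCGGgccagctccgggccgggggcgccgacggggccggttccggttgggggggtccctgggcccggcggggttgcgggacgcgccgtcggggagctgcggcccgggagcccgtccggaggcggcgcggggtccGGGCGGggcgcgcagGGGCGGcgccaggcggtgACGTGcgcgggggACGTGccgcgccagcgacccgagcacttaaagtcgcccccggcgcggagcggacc
ENO2, chr12:6914330-6914579, plus strand: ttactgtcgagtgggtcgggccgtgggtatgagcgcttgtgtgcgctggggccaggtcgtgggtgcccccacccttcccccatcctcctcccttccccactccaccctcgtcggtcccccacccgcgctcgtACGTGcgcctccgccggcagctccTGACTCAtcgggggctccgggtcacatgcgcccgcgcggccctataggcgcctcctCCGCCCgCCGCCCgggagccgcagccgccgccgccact
PFKFB3, chr10:6202682-6202931, plus strand: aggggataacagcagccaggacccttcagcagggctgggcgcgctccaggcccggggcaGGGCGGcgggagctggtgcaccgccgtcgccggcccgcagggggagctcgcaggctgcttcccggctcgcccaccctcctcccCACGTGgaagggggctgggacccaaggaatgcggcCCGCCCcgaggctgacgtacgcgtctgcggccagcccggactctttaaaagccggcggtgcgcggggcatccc
HK2, chr2:74833877-74834126, plus strand: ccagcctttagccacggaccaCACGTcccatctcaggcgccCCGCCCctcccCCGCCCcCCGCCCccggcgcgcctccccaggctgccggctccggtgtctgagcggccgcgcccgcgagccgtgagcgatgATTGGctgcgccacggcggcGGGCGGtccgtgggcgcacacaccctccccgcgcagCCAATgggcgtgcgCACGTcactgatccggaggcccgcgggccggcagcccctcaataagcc

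The PKM window held 28 CpG dinucleotides at 68.4% G+C, and the SLC16A3 window held 43 at 83.2%, the highest of the 10. Medians over 34943 RefSeq promoters were 11 and 58.0%. PFKM, with 1 CpG at 45.2%, and PGAM1, with 5 at 54.8%, lay below both medians, and all other windows lay above both. A GC box, the letters bound by SP1-type factors, stood in 9 of the 10 windows and in 42.5% of all promoters. Motif shares were not matched for G+C content. The E-box was present in GAPDH and PFKFB3 and in 6.32% of all promoters. The HIF core stood in 5 windows (HK2, PFKFB3, GAPDH, ENO2 and SLC16A3) and in 18.5% of all promoters. The AP-1 letters were found in ENO2 alone among the 10 and in 6.59% of all promoters. The CCAAT box stood in 3 windows, among them PKM and HK2, and in 32.0% of all promoters. HK2, a start with no listed H3K4me3 region, carried 4 GC boxes, 34 CpG and 2 matches each of the HIF core and the CCAAT box.

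The 10 genes had 13 H3K4me3 regions with osimertinib, in 6 genes, and 12 with vehicle, in 7 genes. A promoter region, meaning a region that the deposited annotation places within 3 kb of a start, was listed in both treatments for PKM, GAPDH, ENO1 and SLC16A3. Over all genes, 55.0% of the 9819 with such a region shared it between the lists. ENO2 and PFKM had one with osimertinib only, a state of 17.5% of those genes. HK1, PFKFB3 and PGAM1 had one with vehicle only, a state of 27.4% of those genes. With 9 genes counted, the split into 2, 4 and 3 lies near that of all genes. Of the member regions, 8 of 13 with osimertinib had a vehicle region within 1 kb, and 8 of 12 with vehicle had an osimertinib region within 1 kb. Over whole lists, 58.5% of osimertinib regions and 67.6% of vehicle regions had such a neighbour. By position within 1 kb of the outermost RefSeq start, whatever gene a region was assigned to, 2 of the 10 genes were marked with osimertinib only (ENO2 and SLC16A3), 5 in both lists and 0 with vehicle only. Over all 8728 genes marked there, 11.3% were so with osimertinib only, 60.2% in both lists and 28.5% with vehicle only. At the outermost SLC16A3 start the marked region was assigned to AC132872.2, and the SLC16A3 regions lay at starts further in. A further measure, added after seeing the data, took positions within 1 kb of any start in the set of RefSeq promoters. This set need not hold the outermost start: for GAPDH, PGAM1 and PKM it holds 1 start, which lies further in. By this measure 1 of the 10 genes was marked with osimertinib only (ENO2), 6 in both lists, and 2 with vehicle only (HK1 and PFKFB3). Over all 9008 genes marked in this way, 10.7% were so with osimertinib only, 61.3% in both lists and 28.1% with vehicle only.

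**Figure D1:**
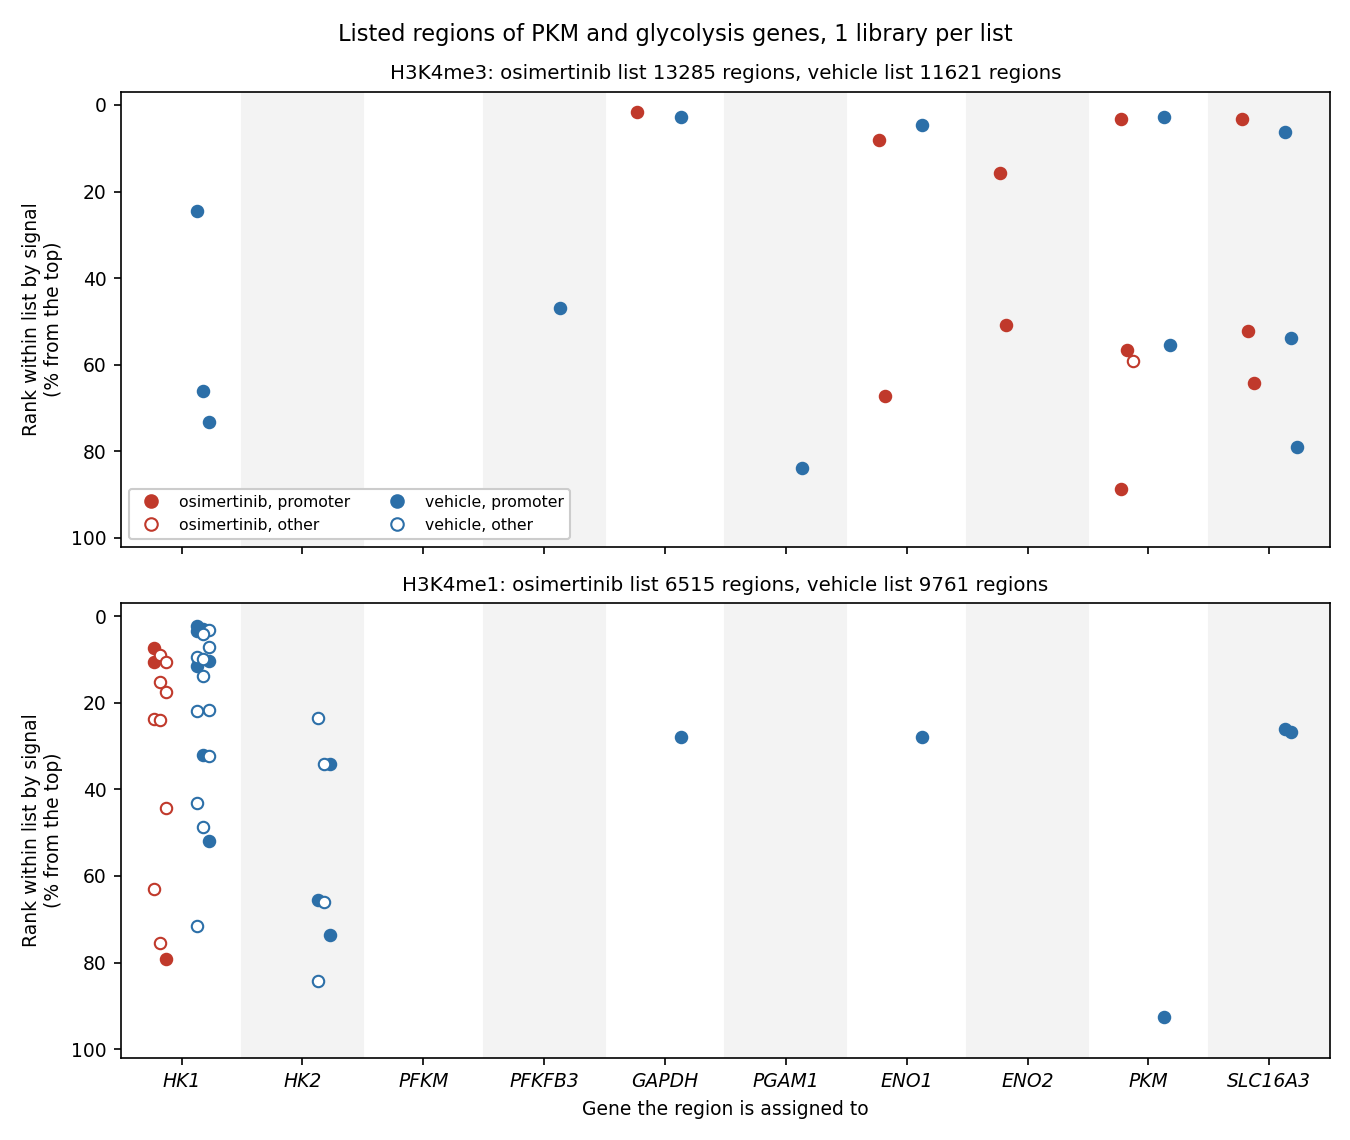
Each point is a listed region, placed by its rank within its own list in percent from the top, for H3K4me3 (upper panel) and H3K4me1 (lower panel), with osimertinib in red and vehicle in blue; filled points are promoter regions. GAPDH, PKM, ENO1 and SLC16A3 stand near the top of both H3K4me3 lists, while HK1 holds most of the H3K4me1 points and the only ones with osimertinib.

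**Figure D2:**
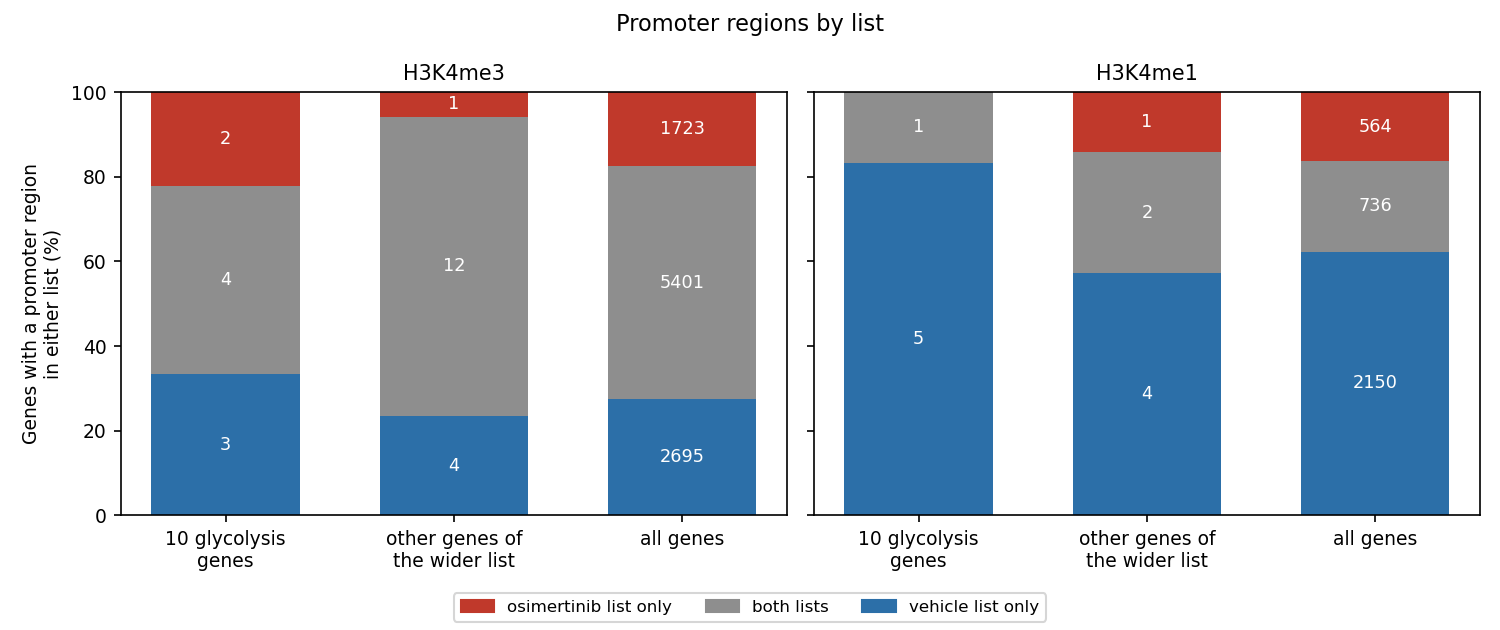
Bars give the percent of genes with a promoter region in either list that had it with osimertinib only, in both lists or with vehicle only, with gene counts printed in the bars. The 10 genes had 2, 4 and 3 for H3K4me3 and 0, 1 and 5 for H3K4me1, beside the other genes of a wider glycolysis list and all genes.

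At the glucose-trapping step, HK1 and HK2 stood apart from each other in these lists. HK1, the hexokinase of most tissues, had 0 H3K4me3 regions with osimertinib and 3 with vehicle. The vehicle regions ranked 8518, 2844 and 7669 of 11621, with signals of 4.55, 14.5 and 5.22. They lay side by side from chr10:69315542-69317541 through chr10:69318740-69320739 to chr10:69320961-69322960, annotated as promoter, and the middle one covers the RefSeq start at 69319064. The nearest osimertinib region was 134096 bp away, assigned to SUPV3L1. Among genes whose strongest vehicle region lay over 10% and up to 25% from the top, as HK1 did at 24.5%, 13.3% (216 of 1625) had no osimertinib promoter region. HK1 lay at the lower edge of that band. In the next band, over 25% and up to 50% from the top, the share was 30.3%. HK2, the hexokinase raised in many tumours, had no H3K4me3 region in either list, assigned or by position within 10 kb of the gene.

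H3K4me1 at HK1 was dense with both treatments. HK1 had 12 regions with osimertinib and 19 with vehicle, against a median of 1 region per gene in either list. Of genes with a region, 56 of 2602 had more than HK1 with osimertinib and 17 of 4346 had more with vehicle. HK1 is 131883 bp long, and these counts were not adjusted for gene length. The osimertinib regions ranked between 472 and 5159 of 6515 with a median of 1345, and 2 were within 10% of the top of their list. The vehicle regions ranked between 224 and 6986 of 9761 with a median of 1116, and 7 were within 10% of the top. Of the osimertinib regions 3 were annotated as promoter, 6 as intron and 3 as 3′ UTR, against 7, 8 and 4 of the vehicle regions. All 12 osimertinib regions had a vehicle region within 1 kb and 10 overlapped one, against 48.3% within 1 kb over the whole osimertinib list. Of the 19 vehicle regions, 16 had an osimertinib region within 1 kb and 11 overlapped one, against 32.6% within 1 kb over the whole vehicle list. The regions are neighbours in one gene, so they are not independent of each other. The 19 vehicle regions lay within 74565 bp, and the whole-list shares are not matched for this density. With regions this close together, a neighbour within 1 kb says little about kept positions.

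The 5′ end of this block differed between the HK1 lists. The osimertinib regions spanned chr10:69322759-69392311 and the vehicle regions spanned chr10:69314782-69389346. Upstream of the first osimertinib region lay 3 vehicle H3K4me1 regions that ranked between 295 and 1116 of 9761. They lay 5977, 3136 and 728 bp from that osimertinib region, so the last, at rank 295, counts as near. The 3 H3K4me1 regions overlapped the 3 vehicle H3K4me3 regions by 1240, 883 and 1070 bp. Neither mark had an osimertinib region at this start, while both had one with vehicle. Further into the gene the strongest region of each treatment, rank 472 at chr10:69333502-69335501 with osimertinib and rank 224 at chr10:69337435-69339434 with vehicle, lay within the stretch listed by both.

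**Figure D3:**
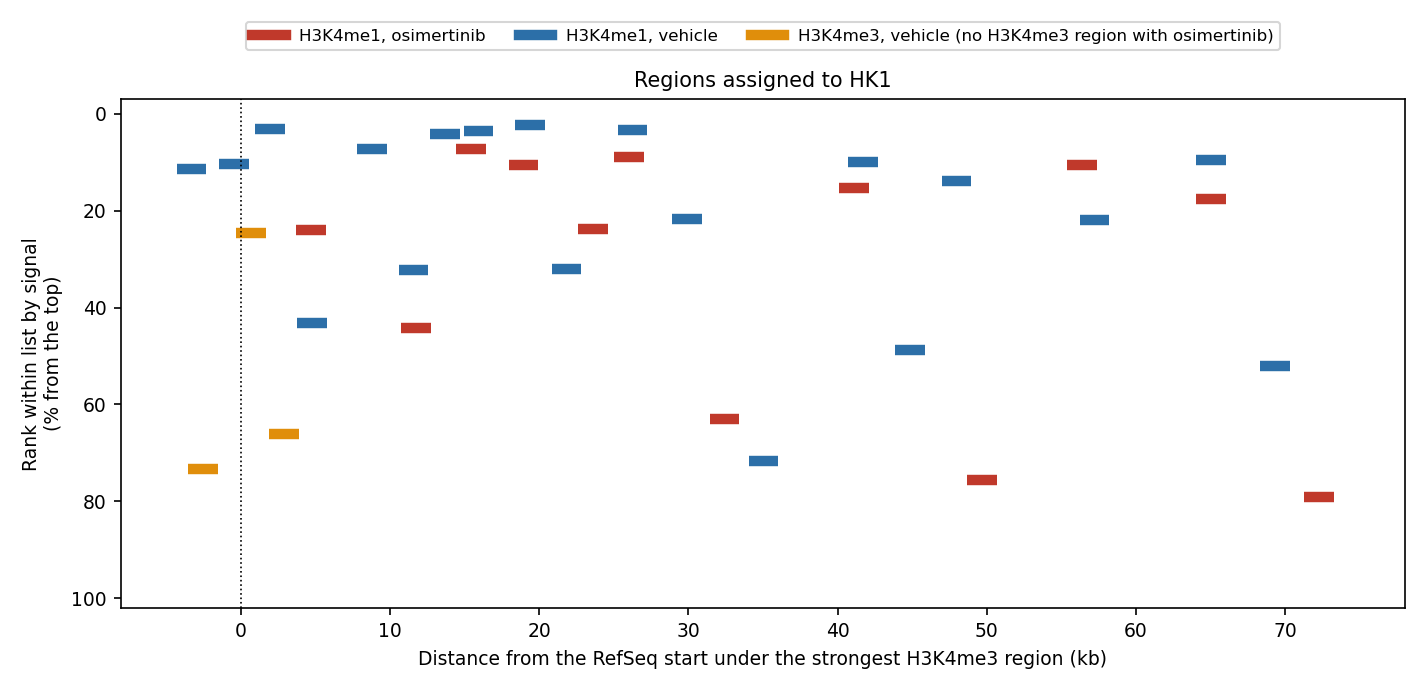
Bars are the 2 kb regions assigned to HK1, placed along the gene by distance in kb from the RefSeq start (dotted line) and by rank within their list in percent from the top. H3K4me1 regions are red with osimertinib and blue with vehicle, and vehicle H3K4me3 regions are orange; from the start leftward only vehicle bars are seen, and downstream both treatments run along the gene.

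HK2 had 0 H3K4me1 regions with osimertinib and 7 with vehicle. The vehicle regions ranked between 2289 and 8231 of 9761 and lay in chr2:74836547-74863547, of which 3 were annotated as promoter and 4 as intron. The highest ranked, chr2:74845015-74847014 with a signal of 4.83, was in the first intron. Every one was at least 630834 bp from an osimertinib H3K4me1 region. Of the 4346 genes in the vehicle list, 172 had more regions than HK2, without adjustment for gene length.

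At the phosphofructokinase step the 2 genes had weak or middling H3K4me3 regions. PFKM, the muscle-type phosphofructokinase, had an osimertinib region at chr12:48118660-48120659 that ranked 11990 of 13285 with a signal of 1.73. The nearest vehicle region was 11939 bp away and was assigned to SENP1. That neighbour starts beside the outermost PFKM start, and regions assigned to SENP1 covered this point in both lists, at rank 3199 with osimertinib and 6564 with vehicle. By position PFKM was therefore marked with both treatments. PFKFB3, the bifunctional enzyme that makes the activator of phosphofructokinase, had no H3K4me3 region with osimertinib. With vehicle it had a region at chr10:6202011-6204010 over the printed start, rank 5438 of 11621 with a signal of 7.69. The nearest osimertinib region was 111638 bp away and was assigned to RBM17. Among genes with a strongest vehicle region over 25% and up to 50% from the top, 30.3% lacked an osimertinib promoter region.

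GAPDH, the glyceraldehyde 3-phosphate dehydrogenase and a common reference gene, was the highest ranked of the 10 with osimertinib. Its H3K4me3 region had a signal of 26.7 with osimertinib, rank 221 of 13285, against 54.0 with vehicle, rank 332 of 11621. The osimertinib region chr12:6534309-6536308 and the vehicle region chr12:6533221-6535220 both cover the outermost RefSeq start at 6534517. The osimertinib region also covers the inner start at 6535264, used for the printed window. The vehicle region ends just before that inner start and overlaps the osimertinib region by 912 bp. Both lie in the top 5% of their list, at 1.66% with osimertinib and 2.86% with vehicle.

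PGAM1, the phosphoglycerate mutase of most tissues, had no H3K4me3 region assigned with osimertinib and a weak one with vehicle. The vehicle region chr10:97428470-97430469 ranked 9748 of 11621 with a signal of 3.67. An osimertinib region assigned to the neighbour RRP12, rank 933, lay 816 bp from it. Regions assigned to RRP12 covered the outermost PGAM1 start in both lists, at rank 933 with osimertinib and 1493 with vehicle. The vehicle-only state of PGAM1 thus concerned gene assignment, since its start was marked with both treatments. Among genes with a strongest vehicle region over 75% from the top, as that of PGAM1 was, 66.3% had no osimertinib promoter region.

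The enolases, which make phosphoenolpyruvate, differed from each other. ENO1, the widely expressed form, had a signal of 11.7 with osimertinib, rank 1083 of 13285, against 41.1 with vehicle, rank 540 of 11621. These regions, chr1:8876940-8878939 with osimertinib and chr1:8877265-8879264 with vehicle, overlapped by 1675 bp. A weaker ENO1 region inside the gene, chr1:8872227-8874226 at rank 8919, was listed with osimertinib and lay 3038 bp from the vehicle region. ENO2, known as the neuronal enolase, had 2 H3K4me3 regions with osimertinib and 0 with vehicle. The region over its start, chr12:6914485-6916484, ranked 2088 of 13285 with a signal of 7.95. The nearest vehicle region was 6087 bp away and belonged to the neighbour ATN1. The other ENO2 region, chr12:6921233-6923232 at rank 6734, overlapped that ATN1 vehicle region, rank 6659, by 661 bp. Only the region over the start was thus without a vehicle counterpart.

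PKM had the highest ranked H3K4me3 region of the 10 genes with vehicle. At its start the signal was 19.5 with osimertinib, rank 422 of 13285, and 55.6 with vehicle, rank 313 of 11621. The regions chr15:72229226-72231225 with osimertinib and chr15:72229558-72231557 with vehicle overlapped by 1668 bp and lie 3.18% and 2.69% from the top. A further pair inside the gene, rank 7522 at chr15:72224803-72226802 with osimertinib and rank 6439 at chr15:72225399-72227398 with vehicle, overlapped by 1404 bp. Another 2 PKM regions were listed with osimertinib alone. One was at chr15:72219333-72221332, near the start of shorter transcripts, at rank 11774, and the other was upstream and intergenic at chr15:72235990-72237989, at rank 7853. They lay 4066 and 4432 bp from the nearest vehicle region.

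H3K4me1 at PKM was listed with vehicle alone, at chr15:72221637-72223636, rank 9042 of 9761 with a signal of 1.84. The nearest osimertinib H3K4me1 region was 918017 bp away. Among genes whose strongest vehicle promoter region lay over 75% from the top, as that of PKM did, 89.1% had none with osimertinib. PKM runs on the minus strand over chr15:72199029-72231591, and the 20304 bp at its 3′ end, 62.4% of the gene, held no region of any of the 8 lists. That end carries the pair of mutually exclusive exons by which the PKM1 and PKM2 isoforms differ. The lists thus describe the shared start of the isoforms and hold nothing at the exons that tell them apart. The share of other genes with such an empty end was not counted, and exon coordinates were not among the sources used here.

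SLC16A3, the lactate exporter, had 3 H3K4me3 regions with each treatment, and each overlapped its counterpart. The strongest had a signal of 19.1 with osimertinib, rank 441 of 13285, against 35.5 with vehicle, rank 720 of 11621. They lay at chr17:82229202-82231201 with osimertinib and chr17:82228452-82230451 with vehicle and overlapped by 1250 bp. The weaker regions ranked 6945 and 8546 with osimertinib and 6259 and 9172 with vehicle, and overlapped by 919 and 276 bp. H3K4me1 had 0 SLC16A3 regions with osimertinib and 2 with vehicle, which ranked 2542 and 2602 of 9761. The nearer of them was 8273 bp from an osimertinib region, assigned to CSNK1D.

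**Figure D4:**
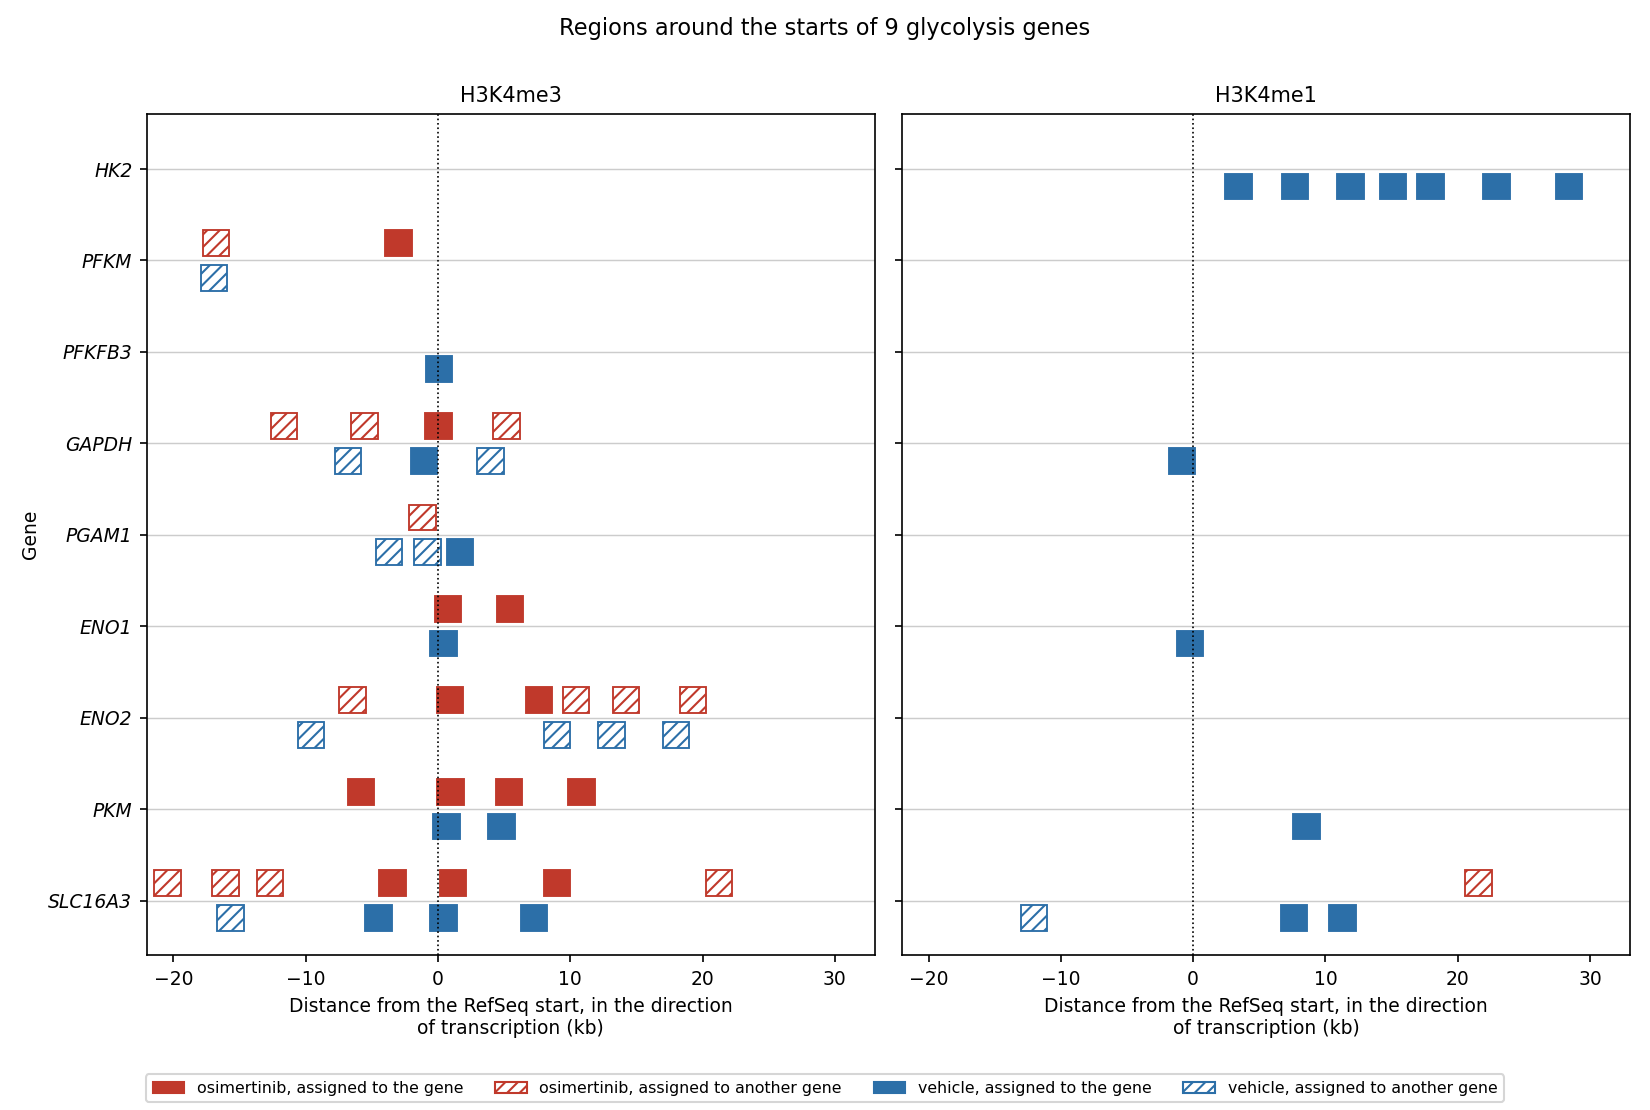
Boxes are 2 kb regions around 9 of the genes, placed by distance in kb from the RefSeq start in the direction of transcription, with osimertinib in red above vehicle in blue, for H3K4me3 (left) and H3K4me1 (right); hatched boxes are assigned to another gene. PKM, ENO1, GAPDH and SLC16A3 have both colours at the start for H3K4me3, ENO2 has red alone, PFKFB3 has blue alone, and every H3K4me1 box assigned to the 9 genes is blue.

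Where H3K4me3 promoter regions assigned to the same one of the 10 genes overlapped between treatments, the osimertinib region lay downstream in the direction of transcription. This held for 7 of 7 such pairs, from 4 genes, by 325 bp at ENO1, 332 and 596 bp at PKM, 1088 bp at GAPDH, and 1081, 750 and 1724 bp at SLC16A3, with a median of 750 bp. Over all genes, 54.9% of 6173 same-gene pairs lay downstream with osimertinib, with a median of 54 bp and quartiles of -353 and 494 bp. For the strongest regions alone the count was 4 of 4 genes, against 56.5% of 4719 genes with a median of 65 bp. Overlapping H3K4me3 pairs that involve a neighbour went both ways. The osimertinib region lay 166 bp downstream at the SENP1 regions over the PFKM start, 375 bp upstream at the RRP12 regions over the PGAM1 start, and 1339 bp upstream at the ENO2 region that overlaps ATN1. For H3K4me1, the osimertinib region lay upstream in both overlapping HK1 promoter pairs, by 504 and 413 bp, and 46.2% of 741 such pairs over all genes lay downstream. Pairs of one gene share their locus, the pattern was picked out after the values were seen, and it was not tested.

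For H3K4me1 the 10 genes had 12 regions with osimertinib, all in HK1, and 31 with vehicle, in 6 genes. No gene had a promoter region with osimertinib only, 5 had one with vehicle only (ENO1, GAPDH, HK2, PKM and SLC16A3), and HK1 had one in both lists. Over all 3450 genes with an H3K4me1 promoter region the shares were 16.3% with osimertinib only, 62.3% with vehicle only and 21.3% in both. ENO2, PFKFB3, PFKM and PGAM1 had none. Of the 12 vehicle regions outside HK1, 0 lay within 1 kb of an osimertinib region, and the smallest gap was the 8273 bp at SLC16A3. Over the whole vehicle list, 32.6% of regions had an osimertinib region within 1 kb. The 12 regions came from 5 genes, with 7 of them neighbours in HK2 and 2 in SLC16A3. They are therefore not independent of each other, and the whole-list share is not matched for this. ENO1, GAPDH, HK2 and SLC16A3 had their strongest promoter region over 25% and up to 50% from the top of the vehicle list, where 75.8% of genes were in that list only. HK1 was within the top 5% of that list, where 20.8% of genes were in it only. By position within 1 kb of any RefSeq promoter start, 0 of the 10 genes had H3K4me1 with osimertinib only. HK1 had it in both lists, and ENO1, GAPDH and SLC16A3 had it with vehicle only. Over all 1630 genes with H3K4me1 by this measure, 11.4% had it with osimertinib only, 11.7% in both lists and 76.9% with vehicle only. The vehicle list was also the longer one for this mark, with 9761 regions against 6515 with osimertinib. With the 6515 strongest regions of each list, 4 of the 10 genes had a promoter region with vehicle only (ENO1, GAPDH, HK2 and SLC16A3), HK1 had one in both, and the call at PKM was lost. Over all 2614 genes counted in this way, 26.1% were in the osimertinib list only, 23.6% in both and 50.3% in the vehicle list only.

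In vehicle cells the H3K4me1 regions of several genes lay on their H3K4me3 regions. The share of all genes with such an overlap was not counted, so these are descriptions of single genes. At GAPDH they overlapped by 1811 bp, with the H3K4me1 region at rank 2715 of 9761. At ENO1 the overlap was 1328 bp, with H3K4me1 at rank 2712. At SLC16A3 an H3K4me1 region overlapped the weakest H3K4me3 region, rank 9172, by 1675 bp, downstream of the main start. At PKM the H3K4me1 region was 1762 bp away from the nearest H3K4me3 region. With osimertinib HK1 was the only one of the 10 genes with H3K4me1, and it had no H3K4me3 region there.

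A KDM1A promoter region was listed at 1 of the 10 genes and an H3K9me3 promoter region at 0 of 10. Over all 18509 genes with a region in any list, 9.60% had a KDM1A promoter region and 4.04% an H3K9me3 promoter region. With 10 genes, both counts lie near these shares. Shares for regions of any annotation were not counted. KDM1A had 0 regions with osimertinib and 1 with vehicle, at PFKM. This region, chr12:48124261-48126260, ranked 4288 of 4731 with a signal of 0.781, and the nearest osimertinib KDM1A region was 501843 bp away. Over the 1777 genes with a KDM1A promoter region, 59.3% had it with osimertinib only, 6.98% in both lists and 33.7% with vehicle only. Of all vehicle KDM1A regions, 12.2% had an osimertinib region within 1 kb. H3K9me3 had 0 regions at the 10 genes with either treatment. Over the 748 genes with an H3K9me3 promoter region, 39.0% had it with osimertinib only, 30.1% in both lists and 30.9% with vehicle only. By position, no KDM1A region other than that of PFKM, and no H3K9me3 region, lay within 10 kb of any of the 10 genes. The share of all genes with such a region within 10 kb was not counted.

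A wider list of 51 glycolysis genes, in which the 10 are included, was counted in the same way, and 16 of the 51 had no region in any list. For H3K4me3, 3 had a promoter region with osimertinib only, 16 in both and 7 with vehicle only. Among the triose steps all 4 genes with a region (ALDOA, TPI1, GAPDH and PGK1) were in both lists, as were LDHA, SLC16A1 and SLC16A3 for lactate, beside 55.0% of all genes with a region. By position within 1 kb of the outermost RefSeq start, or of any RefSeq promoter start, TPI1 was marked with vehicle only. SLC16A1 was marked with neither treatment. The gene added with osimertinib only was PKLR, the liver and red cell pyruvate kinase, at rank 8453 of 13285. By position within 1 kb of its outermost RefSeq start, PKLR was marked in both lists. In the count within 1 kb of any RefSeq promoter start, a set that need not hold the outermost start, PKLR was marked with osimertinib only. Those added with vehicle only were PDP1, ADPGK, MPC1 and PDK3, at ranks 3280, 3581, 4742 and 10373 of 11621. MPC1 is a subunit of the mitochondrial pyruvate carrier, and PDK3 and PDP1 are a kinase and a phosphatase of pyruvate dehydrogenase. ADPGK phosphorylates glucose with ADP as the phosphate donor.

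For H3K4me1 the wider list had 1 gene with osimertinib only, 3 in both and 9 with vehicle only. FBP2, a fructose bisphosphatase, had the next to last region of the osimertinib list, rank 6514 of 6515. Among those added with vehicle only were LDHA, PFKFB2 and PDK2, at ranks 4265, 4483 and 6504 of 9761. LDHA, the lactate dehydrogenase subunit that turns pyruvate into lactate, thus shared the state of PKM in both marks. The PFKFB2 region had an osimertinib region assigned to C1orf116 631 bp away.

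The pattern of PKM over the 8 lists was H3K4me3 promoter regions with both treatments and H3K4me1 with vehicle only. It was shared by 789 of the 18509 genes with a region in any list, among them ENO1, GAPDH, LDHA and SLC16A3. Taken singly, each part was the most frequent state of its mark. H3K4me3 was in both lists for 55.0% of 9819 genes, and H3K4me1 was with vehicle only for 62.3% of 3450 genes. How often genes with H3K4me3 as strong as that of PKM show the whole pattern was not counted. Closest to PKM in rank over the 3 lists that hold it were UBAP2L, HNRNPUL1 and PTCH1, with mean differences of 0.741, 0.832 and 1.73 percentile points. By strength, PKM, GAPDH and ENO1 belong to the 577 genes within the top 5% of the vehicle H3K4me3 list, of which 95.1% also had an osimertinib promoter region and 4.85% did not. SLC16A3 belongs to the next 563 genes, up to 10% from the top, of which 94.5% did and 5.51% did not.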

How the data were processed

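Genome binding libraries for 4 targets were made from PC9 cells with osimertinib or vehicle, with 1 library for each target and treatment, and groups were taken from the sample labels. Samples not analysed here are 2 for IgG and 6 for RNA. The authors deposited one table of annotated regions per library, on GRCh38. HISAT2, featureCounts and Bowtie2 2.3.4 are listed, without their roles, per the submitters' processing notes. Details of the assay type, peak caller, threshold, control and annotation were not given in the sources used here. Signal, as deposited, is a non-negative height per region, and since its scaling is not stated it served only to rank regions within a list. Other columns as deposited hold the bp between a region and its transcript start and the repeated region width of 2000 bp. Read depth is unknown.

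Regions were taken by the gene name the authors assigned. A promoter region is one annotated within 3 kb of a start, and a region of the other treatment is near when the gap between edges is at most 1 kb, whatever its gene. The background is the same count over all genes or regions of the lists. Positions were also checked against RefSeq GRCh38.p14 gene starts. Named genes were all 10, up to 4 others per target and direction from the wider list by highest signal, and the 3 genes most like PKM. A gene named by the rule is not reported here. The genes and the wider list were chosen with earlier results of these data known. Neighbours named beside a region are those of the nearest region. Overlaps and gaps were tested on simulated regions and checked with bedtools. No test between treatments was made. Python 3.11.15, numpy 2.4.6, pandas 2.3.3 and matplotlib 3.10.9 were used. Alternatives covered the promoter definition, list length, the gene assignment and the near distance.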

Additional observations from a re-analysis of the deposited data

How the results depend on the processing

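Counts of the 10 genes stayed within 1.5 times their value in 62 of 72 alternatives, those of the wider list in 57 of 72, and the counts of near regions in 6 of 6. These tallies include many counts of 0 that stayed 0. For the 10 genes these were all H3K9me3 counts, KDM1A with osimertinib only and in both lists, and H3K4me1 with osimertinib only. A count could also stay while its genes changed. At the RefSeq gene start, H3K4me3 with osimertinib only went from ENO2 and PFKM to ENO2 and SLC16A3. H3K4me3 promoters with osimertinib only fell to 1 of the 10 genes in 3 cases. These were equal numbers of the strongest regions (ENO2), near regions counted as both (PFKM), and position within 1 kb of any RefSeq promoter start (ENO2). The last was added after seeing the data. By position within 1 kb of the RefSeq gene start, the vehicle-only count was 0 for H3K4me3 in the 10 genes and 4 in the wider list. That setting uses the outermost start, which HK1 and PFKFB3 regions do not reach, and it moves SLC16A3 from both lists to osimertinib only. H3K4me1 vehicle-only counts were 3 in the 10 genes and 5 in the wider list with either kind of start. Counts in both lists were 0 and 0 with the gene start, and 1 in the wider list with any RefSeq promoter start. With equal numbers of the strongest regions PKM lost its H3K4me1 call. For H3K4me1 with osimertinib only, the wider list gave 0 with promoters within 1 kb and with both kinds of start, and 3 with any assigned region, which also gave 5 in both lists. The KDM1A vehicle-only count was 0, in the 10 genes and in the wider list, with promoters within 1 kb and with both kinds of start. Any assigned region gave 2 wider genes for KDM1A with osimertinib only and 3 with vehicle only. No paired analysis was possible because each target and treatment has 1 library, and for the same reason no replicate could be left out. Read depth is unknown, so a gene missing from a list may lie under a threshold that is not given in the sources used here.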
